A study of Mus musculus with 9 samples.

Results

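Constitutive promoter regions are stretches of open chromatin at gene starts that were called accessible in each of the 7 time-course libraries of mouse cells on their way from fibroblasts to induced pluripotent stem cells (iPSCs). They were chosen by the peaks themselves. Overlapping ATAC-Seq peaks of the 7 libraries on chromosomes 1 to 19 were merged into 204843 union regions, and a region became a member when every library had a peak overlapping it by at least 1 bp and when its midpoint lay within 1 kb of a transcription start site (TSS) of the GENCODE annotation of mm9. This left 9425 members, 4.6% of all union regions. ATAC-Seq cuts open DNA with a transposase and counts the sequenced cuts, so a tall pile of tags marks DNA that is not wrapped tightly in nucleosomes.

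All libraries came from mouse embryonic fibroblasts (MEFs) that carry an Oct4-GFP reporter, and retroviral pMXs vectors for Sox2, Klf4, Oct4 and c-Myc (OSKM) started the reprogramming. D0 stands for the MEFs at day 0 and D3 for unsorted cells 3 days after induction. D6T- and D9T- are Thy-1- cells of day 6 and day 9, that is, cells sorted for the loss of a fibroblast surface protein. D12S+ and D16S+ are SSEA-1+ cells of day 12 and day 16, sorted for a surface sugar of pluripotent cells, and the iPSCs were fully reprogrammed. Another 2 libraries came from Thy-1- cells collected at day 6 after siRNA against the histone variant H3.3 (D6 siH3.3) or a non-targeting siRNA (D6 siNT). The authors describe this knockdown as transient and made at the start of reprogramming, so the siRNA was given well before day 6. Both siRNA libraries took no part in the choice of members. Each condition had 1 library, so no difference between conditions has a replicate check and no p-value is given.

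Promoters that stay open across cell types mostly belong to housekeeping genes, which every cell needs for protein synthesis, RNA processing and metabolism. In mammals such promoters usually lie in CpG islands, stretches rich in G, C and the dinucleotide CpG that are kept free of DNA methylation, and they are bound by widely expressed factors such as SP/KLF proteins, NF-Y, NRF1 and ETS proteins. Promoters of tissue-specific genes are more often poor in CpG and open with the cell state.

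The following upstream sequences show what such a promoter looks like. For 3 motifs, the member with the highest mean level, not yet shown for another motif, was taken among the housekeeping lists described further on whose 150 bases before the TSS hold the motif and overlap no annotated exon. Each is printed 5′ to 3′ along the strand of its gene, in mm9, with the motif on either strand in capitals. Gtf2f1, a subunit of the general transcription factor TFIIF (chr17:57150724-57150873, minus strand), holds the NRF1 letters GCGCATGCG on the opposite strand, with the capitals ending at the base before the TSS. Rpl37, a protein of the large ribosomal subunit (chr15:5066463-5066612, plus strand), holds the ETS letters CCGGAAGT. Mrps14, a mitochondrial ribosomal protein (chr1:162125196-162125345, plus strand), has 2 matches to the SP/KLF letters GGGCGG.
Gtf2f1: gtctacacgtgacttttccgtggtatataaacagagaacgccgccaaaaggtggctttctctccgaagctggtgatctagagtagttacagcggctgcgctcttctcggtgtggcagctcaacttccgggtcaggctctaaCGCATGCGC
Rpl37: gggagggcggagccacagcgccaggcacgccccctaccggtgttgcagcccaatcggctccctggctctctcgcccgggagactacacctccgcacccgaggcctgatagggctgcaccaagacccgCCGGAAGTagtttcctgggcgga
Mrps14: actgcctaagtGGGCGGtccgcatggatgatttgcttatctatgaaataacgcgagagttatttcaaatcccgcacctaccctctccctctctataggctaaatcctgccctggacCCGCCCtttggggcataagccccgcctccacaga

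The members were mostly CpG island promoters. In the 300 bp around the highest summit of a region, GC content had a median of 65.3% over the members, 55.3% over the 18699 promoter regions open in 1 to 6 libraries, 54.3% over the 3672 regions open in all 7 libraries but away from a TSS, and 53.7% in windows from 250 bases before to 50 after each of 82148 annotated starts. The observed over expected number of CpG was 0.82 over the members, 0.31 over the promoter regions of 1 to 6 libraries and 0.36 over the constitutive regions away from a TSS. A window with at least 50% GC and a CpG ratio of at least 0.6 was called CpG island-like. This held for 7771 members, or 82.5%, for 21.1% of the promoter regions of 1 to 6 libraries, for 21.2% of the constitutive regions away from a TSS and for 35.4% of all annotated starts. Sequence took no part in the choice of members, and the shares describe these regions without a test, since neighbouring promoters are not independent samples.

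Motifs of widely expressed promoter factors were more frequent in the members than in the other sets, and the AP-1 motif was less frequent. Both strands were searched, and a match is a run of letters and not a bound site. The SP/KLF letters GGGCGG occurred in 74% of member windows, against 26.8% of the promoter regions of 1 to 6 libraries and 35.5% of all annotated starts. The NF-Y letters CCAAT occurred in 41.3% of members and 35.1% of all starts. The ETS letters CCGGAAGT occurred in 8.64% against 3.95%, and the NRF1 letters GCGCATGCG in 3.7% against 1.67%. The BANP letters CTCGCGAG stood in 2.37% of members and 0.908% of all starts, and the cyclic AMP response element TGACGTCA in 4.03% against 1.8%. The YY1 letters AAGATGGC stood in 4.77% of members and 3.44% of all starts, and the E-box CACGTG in 10.9% and 6.71%. Several of these motifs are rich in G, C and CpG, so their shares are not independent of the base composition given above. The TATA box letters TATAAA were the opposite case, with 3.34% of members and 12.6% of all starts. AP-1, the Fos and Jun dimer that opens fibroblast enhancers, recognises TGANTCA, which stood in 5.54% of members, 15.3% of the promoter regions of 1 to 6 libraries and 23.1% of the constitutive regions away from a TSS, while the 6.88% of all starts was close to the share of the members. The octamer ATGCAAAT, bound by Oct4, stood in 1.31% of members and 1.69% of all starts.

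**Figure D1:**
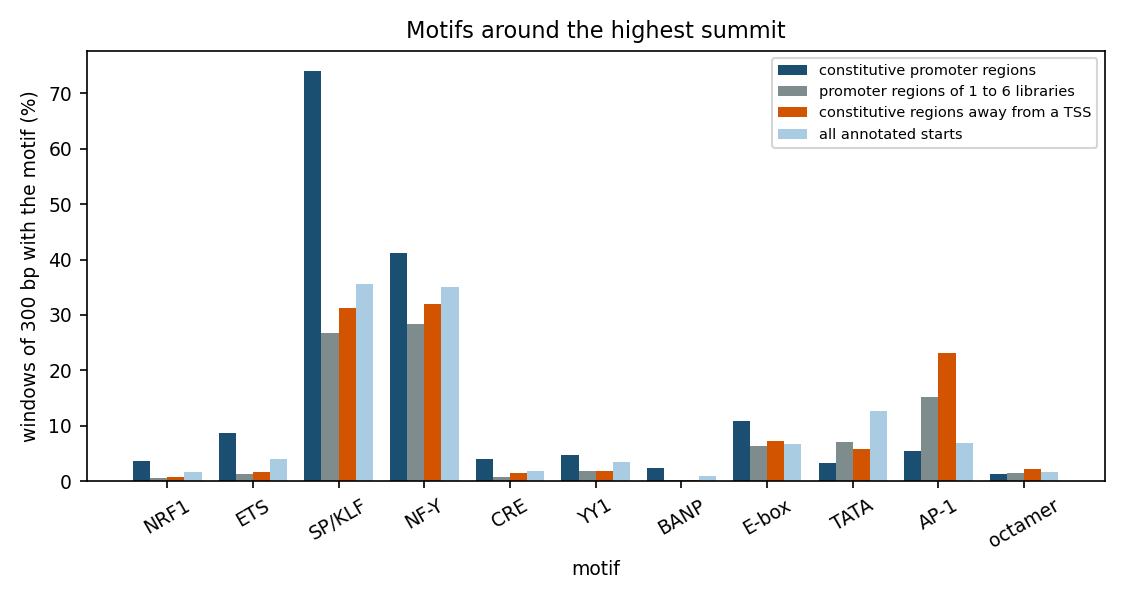
Percent of 300 bp windows (y axis) that hold each motif (x axis) on either strand, for the constitutive promoter regions, for promoter regions of 1 to 6 libraries, for constitutive regions away from a TSS and for all annotated starts. The SP/KLF bar of the constitutive promoter regions reaches 74%, while their AP-1 bar of 5.54% is below that of the constitutive regions away from a TSS at 23.1%.

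Most of the regions open in all 7 libraries were promoters. Of 13097 such regions, 9425 (72%) had their midpoint within 1 kb of a TSS, compared with 8.24% of the 99365 regions found in 1 library, 17.2% of those in 5 libraries and 32.8% of those in 6. The closest miss in number of libraries was 2273 promoter regions with peaks in 6 of the 7. Of these, 1289 lacked a peak in D9T-, the library with the fewest tags, and 755 lacked one in D0, where levels were lowest, while 3 lacked one in D3 and 4 in D6T-. At the limit of distance, the last members inside were regions near Malat1, a long noncoding RNA (chr19:5803097-5804245, midpoint 1000 bp from the TSS, mean level 1.67 RPM, the highest summit pileup in tags per 1000000 total tags) and near Zfp532 (997 bp, 1.28). The first regions outside lay near Src (1005 bp, mean level 0.783) and Gm16755 (1006 bp, 0.724).

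The members covered 9831 of the 21418 protein-coding genes of chromosomes 1 to 19, which is 45.9%. For 8925 members (94.7%) the nearest TSS was that of a protein-coding gene, for 227 that of a long intergenic RNA (lincRNA), for 51 that of a pseudogene and for 44 that of a miRNA. Of the annotated lincRNA genes, 549 of 1232 (44.6%) had a member within 1 kb of a start. Such gene counts credit a member to every gene with a start within 1 kb, so genes can share a member. Only the 227 members above had a lincRNA start as the nearest. The share was 10.8% for processed transcripts, 5.52% for miRNA genes and 2.22% for pseudogenes. Among the chromosomes, the share of protein-coding genes with a member ran from 35.7% on chromosome 14 and 38.6% on chromosome 7 to 53.7% on chromosome 12. Protein-coding starts on both strands, the arrangement of a bidirectional promoter, were found within 1 kb of 1035 members (11%), against 2.11% of the promoter regions of 1 to 6 libraries. These bidirectional members had somewhat higher levels than the other 8390, with a median of 1.04 against 0.883 RPM in D0 and 4.3 against 3.46 in D6T-.

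Member regions were wide and their summits sat just upstream of the TSS. The median width of the merged region was 1330 bp, with 712 and 2499 bp at the 5th and 95th percentiles, while promoter regions of 1 to 6 libraries had a median of 402 bp. A region merged from 7 libraries is wide in part by construction. In the library where each member was highest, the summit lay at a median of -74 bp from the nearest TSS, with quartiles of -158 and 8 bp, and 72.8% of summits were upstream. The medians of the 7 libraries ran from -82 bp in D0 to -68 bp in D3. For 6359 members (67.5%), the 7 summits lay within 200 bp of each other, which is the length to which tags were extended before piling up.

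**Figure D2:**
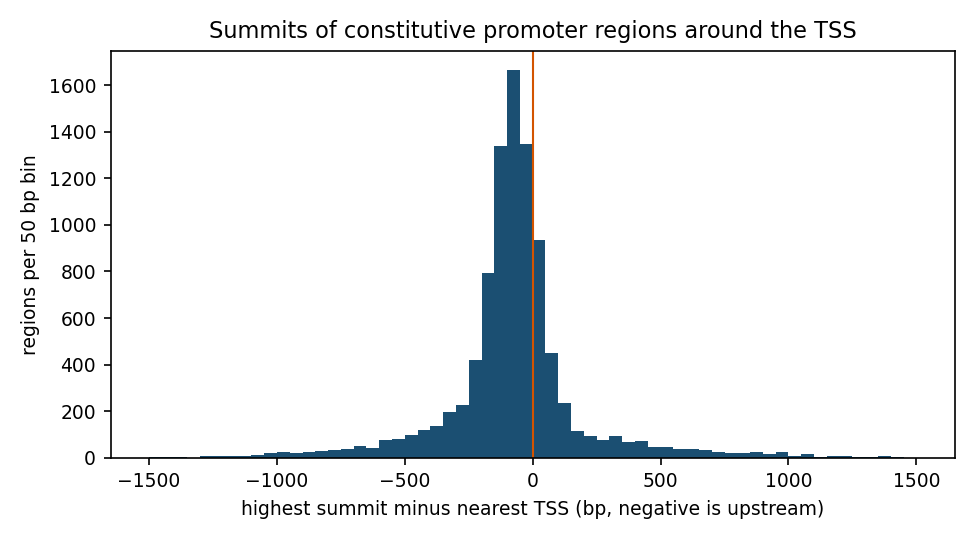
Number of constitutive promoter regions per 50 bp bin (y axis) by the distance of the highest summit from the nearest TSS (x axis, in bp, negative is upstream; summits beyond 1500 bp are not drawn). The distribution has its median at -74 bp and most of its regions upstream of the line at 0.

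Levels were compared as the highest summit pileup of a region per 1000000 total tags of the library (RPM). The choice of members used whether a peak was present and not how tall it was, yet a tall region is more likely to be called in all libraries, so the levels are a description. Libraries held 13213117 (D9T-) to 31714845 (D0) tags in total, and the lowest pileup called as a peak on the autosomes was 7 to 11 tags. In median, a member had 28 tags at its summit in D0, 64 in D3, 76 in D6T-, 18 in D9T-, 40 in D12S+, 46 in D16S+ and 30 in iPSCs. On the RPM scale, the median of the members was 0.883 in D0, 2.12 in D3, 3.55 in D6T-, 1.36 in D9T-, 2.27 in D12S+, 2.17 in D16S+ and 1.13 in iPSCs. D6T- was the highest library for 8375 members, and D0 was the lowest for 6664 and iPSCs for 2029. Of the total tags, an unknown and unequal part was mitochondrial. The median summit pileup on the mitochondrial genome ran from 332 RPM in D0 to 1549 in D9T-, and the part of this in the differences between libraries was not tested.

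Constitutive promoters stood above constitutive regions elsewhere in every library, with ratios of the medians from 1.17 in D0 to 2 in D16S+. They also stood above the promoter regions of 1 to 6 libraries, whose medians, over the regions with a peak in that library, ran from 0.504 in D0 to 0.852 in D12S+. Since these medians leave out regions without a peak, they overstate the level of the less frequent regions.

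**Figure D3:**
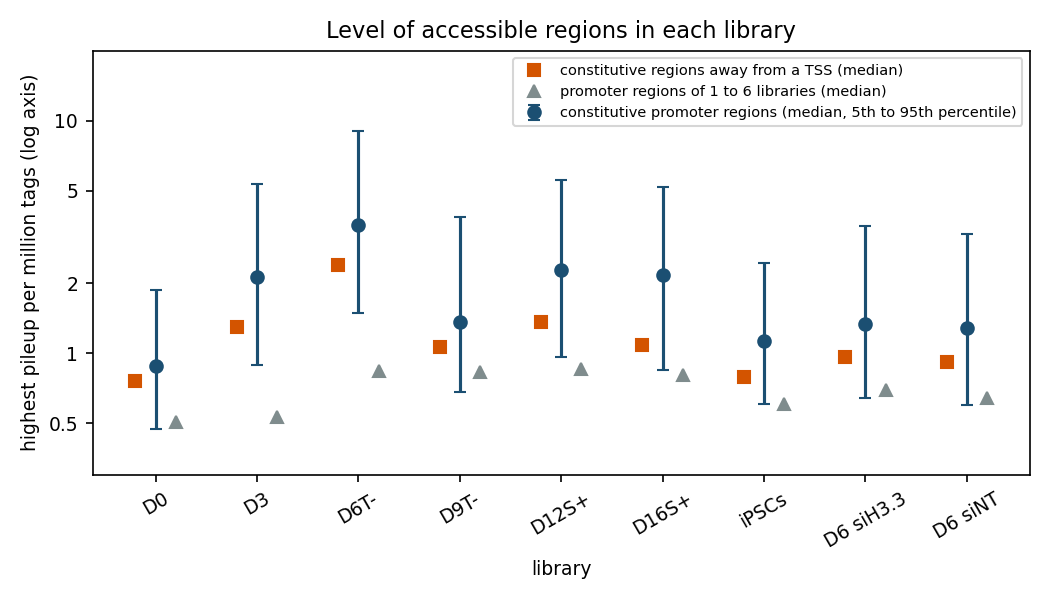
Highest summit pileup in RPM, tags per 1000000 total tags (y axis, log scale), in the 9 libraries (x axis), as the median with 5th to 95th percentile bars over constitutive promoter regions and as medians over constitutive regions away from a TSS and promoter regions of 1 to 6 libraries. The median of the constitutive promoter regions is above both other medians in each library, from 0.883 in D0 to 3.55 in D6T-.

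Relative to one another, most members kept their level. After each library was divided by the median of its members, the ratio of the highest to the lowest of the 7 levels had a median of 1.85 over the members. It was at most 2-fold for 5888 members (62.5%), over 4-fold for 144 (1.53%) and 13.2 at most. The counts set a floor to this, because the lowest library of a member had a median of 18 tags. The choice of members also limits the ratio, since a region that lost its peak in any library was left out. As a description across the 9425 members, which share libraries and depth, Spearman's rho between the levels of 2 libraries ran from 0.59 (D0 and iPSCs) to 0.91 (D3 and D6T-).

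The most even members, among the 3996 with at least 20 tags in every library, were Ccdc53, Sh3bp4, Klhdc3, Gtf2i and Klf3. Ccdc53 (chr10:87663568-87664615), a subunit of the WASH complex that moves endosomes, had 1.01 RPM in D0, 2.41 in D3, 4.25 in D6T-, 1.59 in D9T-, 2.67 in D12S+, 2.64 in D16S+ and 1.32 in iPSCs. These values followed the medians of all members closely, with a ratio of highest to lowest of 1.07 after centring. The ratio was 1.08 for Sh3bp4, an inhibitor of the Rag GTPases of amino acid sensing, and 1.14 for Klhdc3, a substrate receptor of a cullin ubiquitin ligase that shares its bidirectional promoter with Mea1. It was 1.14 for Gtf2i, the transcription factor TFII-I, and 1.15 for Klf3, a repressor of the KLF family. These 5 were picked as the smallest ratios of 3996. With counts of 21 to 146 tags per library, their evenness cannot be told apart from counting error.

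The 5 highest members were not typical promoters. Gm10925 (chr1:24618215-24623185) had 460 RPM in D0, 1264 in D6T-, 2083 in D9T- and 799 in iPSCs. Of its 25-base stretches, 92.7% are also found in the mitochondrial genome, and of its stretches of 51 bases, the read length, 91.6%. Gm13340 on chromosome 2 (mean level 271) and Gm11408 on chromosome 4 (38) shared 51.5% and 19.4% of their 25-base stretches with it. These 3 regions were highest in D9T-, as was the mitochondrial genome itself, and their tags cannot be told apart from mitochondrial ones at the identical stretches. Gm10800 and Gm10801 on chromosome 2, with mean levels of 485 and 213, share no such stretch with the mitochondrial genome, and their copy number in the genome was not tested. Among protein-coding members with a name of their own, a width under 5000 bp and no mitochondrial match, leaving out the genes of the 4 factors (a choice made after the values were seen), the highest were Evi5l, M6pr, Fam160a2 and Khsrp, with means of 9.64, 9.49, 9.28 and 9.01. M6pr, a receptor that carries enzymes to lysosomes, had 3.41 RPM in D0, 9.82 in D3, 18.5 in D6T-, 12.3 in D9T-, 11.3 in D12S+, 7.7 in D16S+ and 3.35 in iPSCs. Like the median member, it was highest in D6T- and low at both ends.

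Most genes of the basic machinery of the cell had a constitutive promoter. Beside the 45.9% of all protein-coding genes, the share was 94.6% of the cytosolic ribosomal proteins (70 of 74 on chromosomes 1 to 19), 95% of the cytosolic aminoacyl-tRNA synthetases, which charge tRNAs with amino acids (19 of 20), and 89.7% of RNA polymerase II subunits and general transcription factors (26 of 29). It was 87.5% of proteasome subunits (28 of 32), 87.2% of translation initiation and elongation factors (34 of 39), 85.7% of spliceosome components (30 of 35) and 83.1% of mitochondrial ribosomal proteins (64 of 77). Of reference genes used in expression assays, 18 of 19 had one, with Sdha as the exception, and of long noncoding RNAs that host small nucleolar RNAs or are otherwise widely expressed, 11 of 16. The ribosomal protein genes without a member were Rpl4, Rpl8, Rpl19 and Rpl23.

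Within these lists the levels differed severalfold between genes. Among the ribosomal proteins, Rps29 had the highest mean level (6.65 RPM) and Rpl35a the lowest (0.924). Among the mitochondrial ribosomal proteins it was Mrpl17 (6.81) and Mrps10 (0.778), among proteasome subunits Psma5 (3.2) and Psmb5 (1.08), and among polymerase II genes Polr2h (3.61) and Gtf2h2 (0.925). The pair was Lars (4.51) and Vars (1.2) for the synthetases, Eif5 (4.64) and Eif3b (1.25) for the translation factors, and Sf1 (4.25) and Snrpb (1.01) for the spliceosome. Rplp0 (3.4) and Hsp90ab1 (1.39) were the ends of the reference genes, and Snhg5 (3.22) and Snhg17 (1.26) those of the noncoding RNAs. Summit pileup depends on how broadly cuts are spread over a promoter, so it does not rank transcription. The median of the lists lay between 1.81 RPM for the noncoding RNAs and 2.47 for the synthetases, close to the 1.92 of all members.

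**Figure D4:**
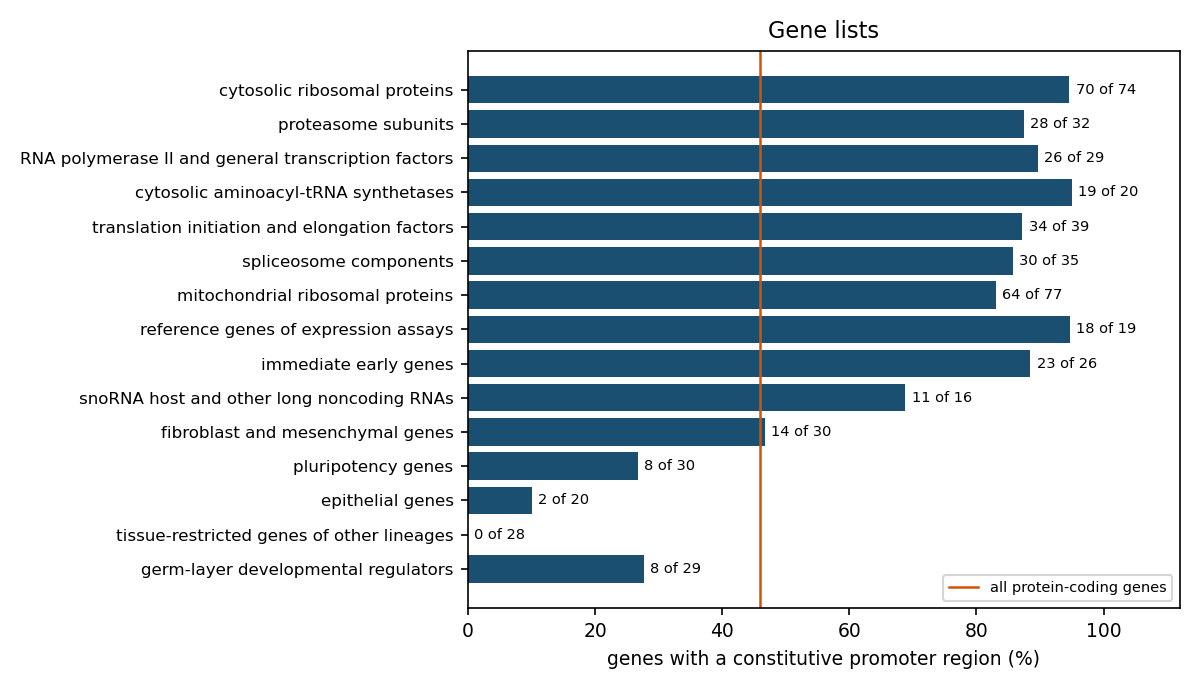
Percent of genes that have a constitutive promoter region (x axis) for each gene list (y axis), with the counts at the bar ends and a line at the 45.9% of all protein-coding genes. The lists of basic cell machinery lie to the right of the line, and the pluripotency, epithelial, germ-layer and tissue-restricted lists to the left.

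Immediate early genes, which respond to serum and stress within minutes, also had promoters open throughout, in 23 of 26 cases (88.5%; Fosl1, Junb and Ier2 were the exceptions). Jun was the highest, with 2.62 RPM in D0, 5.06 in D3, 7.53 in D6T-, 3.48 in D9T-, 6.02 in D12S+, 6.85 in D16S+ and 2.63 in iPSCs. Dusp6, a phosphatase of the ERK pathway, had a mean of 4.59, Klf6 3.99, Atf3, a stress-responsive transcription factor, 3.57, and Btg2 2.85. The lowest was Zfp36, which destabilises mRNAs (1.32). The other members of the list were Jund, Egr1, Ier5, Fosl2, Nr4a3, Nr4a1, Nr4a2, Dusp1, Dusp5, Fos, Maff, Egr2, Fosb, Cyr61, Ctgf, Egr3 and Ier3. None of the 23 reached 2-fold in either direction in iPSCs against D0. Of all members, 5.14% were higher and 2.37% lower, and of all regions 3.99% and 6.22%. With 23 genes, none is near these shares.

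Lists that mark cell identity held fewer constitutive promoters, though not none. Of fibroblast and mesenchymal genes, 14 of 30 had one (46.7%, near the share of all protein-coding genes). Vim, an intermediate filament protein, had the highest mean of these (2.14), with 1.73 RPM in D0, 2.35 in D3, 4.11 in D6T-, 1.74 in D9T-, 2.38 in D12S+, 1.75 in D16S+ and 0.941 in iPSCs. The other 13 were Snai1, Snai2, Fn1, Cdh2, Sparc, Pdgfra, Thbs1, Twist1, Fbn1, Col6a2, Col5a2, Col1a1 and Zeb2, the lowest at 1.08 (Zeb2). So the promoters of Twist1, Snai1 and Zeb2, repressors of epithelial genes, stayed called as open in iPSCs with 23, 28 and 17 tags. Thy1, Prrx1, Col1a2, Col3a1 and 12 others of the list had no constitutive promoter.

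Of the pluripotency genes, 8 of 30 had a constitutive promoter (26.7%), and they were Klf5, Tbx3, Mybl2, Klf2, Trim28, Tfcp2l1, Utf1 and Dnmt3b. Klf5, a transcription factor of the naive state, had 0.914 RPM in D0, 3.27 in D3, 6.97 in D6T-, 2.95 in D9T-, 6.59 in D12S+, 6.28 in D16S+ and 2.67 in iPSCs. Relative to the median member of each library, it was close to it in D0 and above it in every later library. Utf1, a chromatin factor of pluripotent cells, had 17, 26, 31, 8, 25, 37 and 41 tags in the order of the time course, and Tfcp2l1 had 12, 38, 44, 12, 17, 38 and 36. Both were thus called in D0 from few tags. Nanog, Esrrb, Zfp42, Sall4, Lin28a and Dppa3 were among the 22 genes without one. Of the epithelial genes, Tjp1, a tight junction scaffold (mean 1.34), and Pkp3, a desmosome protein (0.594), were the 2 of 20 (10%). Of germ-layer regulators, 8 of 29 had a constitutive promoter (27.6%), from Irx3 (2.29) to Eomes (0.889) with Isl1, Msx1, Pax6 and Neurog2 among those in between, and of genes restricted to other tissues none of 28.

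The labels could be set against marker genes by asking whether a peak was called within 1 kb of a start. Of 10 fibroblast markers, 7 had one in D0, 9 in D3, 8 in D6T-, 3 in D9T-, 7 in D12S+ and in D16S+ and 4 in iPSCs. Thy1, the gene of the protein sorted against, had a promoter peak in D0 and D3 and none in D6T- or D9T-, and it had one again in D12S+, D16S+ and iPSCs. D9T- also had the fewest tags of all libraries. Of 10 pluripotency markers, 3 had one in D0 and 8, 9 and 9 in D12S+, D16S+ and iPSCs. The blood markers Ptprc and Cd3e had none in any library, while in D0 Pecam1 and Kdr of endothelium did and Cdh5 did not. Open promoters are not expression, and 2 fibroblast markers (Col1a1 and Twist1) and 2 pluripotency markers (Utf1 and Tfcp2l1) are themselves members.

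The comparison of iPSCs with D0 asks which constitutive promoters differ between the end and the start of reprogramming. Log2 ratios of the levels were centred on their median over the 20852 regions with a peak in both libraries (0.25), and 2-fold was used as the limit. Of the members, 484 (5.14%) were at least 2-fold higher in iPSCs and 223 (2.37%) at least 2-fold lower, and of all 20852 regions 3.99% and 6.22%. The median of the members was 0.10 on this scale. The higher members had a median of 17 tags in D0 and the lower ones 17 in iPSCs. Members within 2-fold had 29 and 30. The lowest pileups called were 11 tags in D0 and 10 in iPSCs, and the part of counting error in these calls was not tested. The balance depends on the centring: uncentred, 1082 were higher and 72 lower, and centred on the members themselves 333 and 293. Of constitutive regions away from a TSS, 13.7% were at least 2-fold lower.

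The 5 members with the lowest ratio were Lsp1, Trim16, Pvr, Gm10354 and 3110082D06Rik. Lsp1, an actin-binding protein of white blood cells, had 1.58 RPM in D0 (exact Poisson 95% interval 1.17 to 2.08), 2.38 in D3, 2.99 in D6T-, 1.21 in D9T-, 1.48 in D12S+, 0.614 in D16S+ and 0.376 in iPSCs (0.18 to 0.692), a centred log2 ratio of -2.32. Trim16, a ubiquitin ligase involved in the clearance of damaged lysosomes, had 1.8 in D0 (1.36 to 2.33), 9.63 in D6T- and 0.451 in iPSCs (0.233 to 0.789), with -2.25. Both were above the median member in D0 and far below it in D16S+ and iPSCs, but they were picked for the ratio of D0 to iPSCs, so the gap between these intervals is no test. The intervals cover counting error only, since tags from amplified DNA are not independent molecules. Pvr, the poliovirus receptor homologue and an adhesion protein, was at -2.08, Gm10354 at -1.96 and 3110082D06Rik at -1.79.

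Stxbp5l, Gpr98, Dennd1a and Fmn2 were among the 5 members with the highest ratio. Stxbp5l, a tomosyn that restrains vesicle release in neurons, had 0.473 RPM in D0 (0.265 to 0.78), 1.65 in D3, 2.95 in D6T-, 1.14 in D9T-, 4.31 in D12S+, 4.72 in D16S+ and 3.35 in iPSCs (2.69 to 4.12), a centred log2 ratio of 2.57. Gpr98, an adhesion receptor of sensory hair cells, was at 2.16, Dennd1a, which activates Rab35, at 2.13 and Fmn2, a formin of the oocyte spindle, at 2.12. These 4 had 11 to 19 tags in D0, close to the lowest pileup called there. Like the median member, they had higher levels in every later library.

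**Figure D5:**
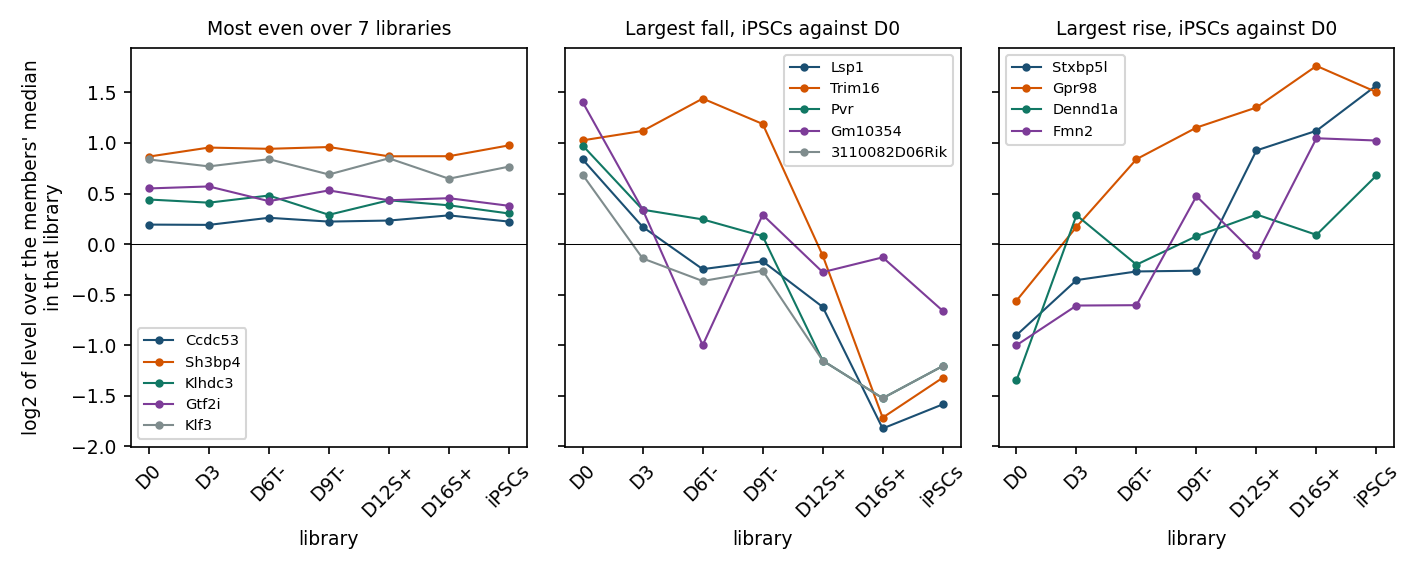
Log2 of the level over the median level of the constitutive promoter regions in the same library (y axis) in the 7 time-course libraries (x axis), for the 5 most even members, the 5 with the largest fall and 4 of the 5 with the largest rise in iPSCs against D0. The even members stay flat, and Trim16 stays above the median until D9T- and lies below it from D12S+ on. Each point is 1 library.

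Sequence differed between the members that were higher and lower in iPSCs. The AP-1 letters stood in 42 of the 223 members at least 2-fold lower (18.8%), in 12 of the 484 at least 2-fold higher (2.48%) and in 5.37% of the other 8718. CpG island-like windows made up 51.1% of the lower, 80.4% of the higher and 83.4% of the other members. The octamer stood in 0.448%, 3.1% and 1.23%. These are shares of regions and were not tested. As the AP-1 examples, the 101 bases around the match nearest the summit are shown for the members with the lowest ratios that hold it outside exons, Lsp1 (chr7:149656877-149656977, plus strand) and Pvr (chr7:20496738-20496838, minus strand), printed along the strand of the gene with the AP-1 letters in capitals. Counted from the TSS, the match of Lsp1 begins at -824 and the first of 2 matches of Pvr at -578. Neither stretch holds a CpG.
Lsp1: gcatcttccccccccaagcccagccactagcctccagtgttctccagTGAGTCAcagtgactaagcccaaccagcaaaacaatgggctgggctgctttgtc
Pvr: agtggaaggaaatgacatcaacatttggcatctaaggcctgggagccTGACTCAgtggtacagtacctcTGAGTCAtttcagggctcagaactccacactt

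The comparison of D6T- with D0, the library highest for most members with the one lowest for most, shares D0 with the comparison above. Centred on the 50782 regions with a peak in both (median log2 ratio 1.13), 3840 members (40.7%) were at least 2-fold higher in D6T- and 23 (0.244%) at least 2-fold lower, and of all these regions 12.4% and 11.4%. The median of the members was 0.89. Of constitutive regions away from a TSS, 22.8% were at least 2-fold higher, and of promoter regions of 1 to 6 libraries 4.77%. With centring on the members, 123 were higher and 338 lower. With the same number of strongest peaks taken from every library, which changes the members, the peaks and the centre at once, 711 of 7499 members (9.48%) were at least 2-fold higher. Members with the NF-Y letters had a median of 0.99 and those without 0.82. Their mean level over the 7 libraries was also higher, at a median of 2.36 against 1.72 RPM.

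Few regions of the gene lists were past 2-fold in iPSCs. Of the 14 fibroblast and mesenchymal regions, Vim (centred log2 ratio -1.14) and Col6a2 (-1.05) were at least 2-fold lower in iPSCs against D0 and none was higher, and the median was -0.39. Of the 8 pluripotency regions, Tfcp2l1 (1.58), Klf5 (1.29) and Utf1 (1.27) were at least 2-fold higher and none lower, with a median of 0.26. Tfcp2l1 and Utf1 had few tags in D0, as given above. Of the 70 ribosomal protein regions 1 was higher and 2 were lower, of the 63 regions of mitochondrial ribosomal proteins none was higher and 5 were lower, and of the 28 proteasome regions none passed. Beside these list counts, 5.14% of all members were higher and 2.37% lower, and of all regions 3.99% and 6.22%. In D6T- against D0, 22 of the 70 ribosomal protein regions, 14 of the 63 and 12 of the 28 were at least 2-fold higher, and none was lower, beside 40.7% and 0.244% of all members and 12.4% and 11.4% of all regions. The medians of the lists lay between 0.56 for the fibroblast genes and 1.01 for the reference genes, beside 0.89 for all members.

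The siRNA libraries had no part in the choice, so they show how far the members recur in further day 6 cells. Of the 9425 members, 9229 (97.9%) had a peak in D6 siNT and 9178 (97.4%) in D6 siH3.3, and 9058 (96.1%) in both. Among all 204843 union regions the share in both was 15.8%. It was 12.1% for promoter regions of 1 to 6 libraries and 81.8% for constitutive regions away from a TSS. Of the members with 1 of the 2 peaks, 171 had it in D6 siNT alone and 120 in D6 siH3.3 alone, and 76 had neither. The 367 members without both peaks were weak ones, with a median of 31 tags in D6T- against 78 for the others.

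The level of the members was close between knockdown and control. The median was 1.34 RPM in D6 siH3.3 and 1.29 in D6 siNT, both below the 3.55 of D6T-, which was also Thy-1- at day 6 but had no siRNA. Over the 9058 members with both peaks, the median log2 ratio of D6 siH3.3 to D6 siNT, centred on the 32330 regions with a peak in both (0.08), was -0.02, and the 5th and 95th percentiles were -0.65 and 0.56. At least 2-fold higher were 23 members (0.254%) and at least 2-fold lower 48 (0.53%), and of all 32330 regions 0.687% and 0.792%. Uncentred, the counts turned to 47 and 26. No member reached 3-fold in either direction. The knockdown itself cannot be read from accessibility, and with 1 library a side a difference between cultures cannot be told apart from an effect of the siRNA.

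The members with the largest differences were near the counting limit. Gm11744 had 27 tags in D6 siNT and 9 in D6 siH3.3, or 1.24 (exact Poisson 95% interval 0.817 to 1.8) and 0.482 (0.22 to 0.915) RPM, a centred log2 ratio of -1.44. Lect1, chondromodulin of cartilage, was at -1.39, Crlf3 at -1.34, Serpinh1, the collagen chaperone, at -1.32 (22 and 8 tags) and Ganc, a glucosidase, at -1.3. On the other side, Rcan3, a calcineurin regulator, was at 1.35 (10 tags in D6 siNT and 23 in D6 siH3.3), Necap2, an endocytosis protein, at 1.3, Edf1, a transcriptional coactivator, at 1.26, Ccdc90a at 1.26 and Gm12111 at 1.21. For these 10, the higher library had 22 to 39 tags and the lower 8 to 18. Being the extremes of 9058 ratios, they were picked for their size.

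Members at the genes of the 4 reprogramming factors need separate reading, because retroviral copies of their coding sequence were added to the cells. Sox2 (chr3:34547697-34550434) had 0.441 RPM in D0, 12.4 in D3, 4.86 in D6T-, 0.908 in D9T-, 1.31 in D12S+, 1.75 in D16S+ and 1.2 in iPSCs. Its summits in D3, D6T- and iPSCs lay inside its exon. Among the 2 Myc regions, that at chr15:61817833-61820015 had 0.725 in D0, 8.37 in D3 and 3.69 in D6T-, with exonic summits in all 7 libraries. The region at chr15:61815846-61817561 had 0.757, 0.86 and 1.54, with an exonic summit in D6T-, D12S+, D16S+ and iPSCs but not in D0, D3 or D9T-. Tags of the added copies and of the genes cannot be told apart at exons. Klf4 ran from 0.788 in D0 to 2.67 in D12S+ with its summit upstream of the TSS. The region assigned to Pou5f1 was 17561 bp wide and had 13.1 RPM in D0, 24.7 in D3 and 14.4 in iPSCs. Its highest summit was at -1999 bp from the TSS, but in D0, D3, D9T- and D12S+ the summit lay in an annotated exon.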

How the data were processed

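The accessibility of MEFs, reprogramming intermediates, iPSCs and 2 siRNA-treated cultures was measured with ATAC-Seq in 9 libraries. Per the labels, the authors used STAR, Picard and MACS2 on mm9, and per the file headers peaks were called with MACS2 2.1.0.20151222 for each library without a control. The deposited values are the summit pileup, a signal in tags that was not normalized, a fold enrichment ratio, and the −log10 of p and q. Levels are the pileup divided by the total tags in the header, which include mitochondrial tags, and the fold enrichment served as an alternative.

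Peaks were merged, and regions were annotated with GENCODE vM1 on mm9, using Python 3.11.15, numpy 2.4.6, pandas 2.3.3 and pysam 0.24.0. Comparisons are log2 ratios minus their median over all regions with a peak in both libraries. Intervals are exact Poisson (scipy 1.17.1) and cover counting error only. The counting of calls was tested on simulated data. Named members were the 5 highest, the 5 most even (at least 20 tags in every library), the 5 with the lowest and highest ratio (at least 20 tags in 1 of the 2 libraries), the factor genes and the gene lists. Members and lists were chosen with earlier results of these data known. Some items are not reported here.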

Additional observations from a re-analysis of the deposited data

How the results depend on the processing

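With 1 library per condition, no count has a replicate error, and the counts of members past 2-fold moved with the centring, the peak strength and the fold chosen. No paired analysis was possible because each condition has 1 library. The number of members lay between 6383 and 10714 over all alternatives and the number of CpG island-like members stayed within 1.5 times. When the weaker 50% of peaks were dropped from every library, 6017 of 6383 members (94.3%) had a peak in both siRNA libraries, and with D9T- left out of the choice 9683 of 10714 (90.4%) did, against 96.1% as reported. For iPSCs against D0, the counts higher and lower were 207 and 94 with the stronger 50% of peaks, 238 and 97 with the same number of peaks per library, 1082 and 72 without centring, 1706 and 870 at 1.5-fold, and 51 and 26 at 3-fold. For D6T- against D0, the counts higher were 1748, 711, 9112, 6895 and 574 in the same order, and 123 with centring on the members. The counts lower were 11 with starts within 500 bp, 39 within 2 kb, 11 with the stronger 50% of peaks, 69 without D9T-, 2 without centring, 338 with centring on the members, 67 at 1.5-fold and 11 at 3-fold. For D6 siH3.3 against D6 siNT, the counts higher and lower were 4 and 12 with the stronger 50% of peaks, 9 and 21 with the same number of peaks, 47 and 26 without centring, 369 and 622 at 1.5-fold, and 0 and 0 at 3-fold. The cause of these shifts was not tested. Of 108 alternative values, 73 were within 1.5 times the reported one.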

Other observations

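Among members with the widest range over the 7 libraries, chosen after their values were seen, Fcgr3, an Fc receptor of immune cells, had 0.757 RPM (summit pileup in tags per 1000000 total tags) in D0, 14 in D3, 19.2 in D6T-, 0.681 in D9T-, 10.9 in D12S+, 6.42 in D16S+ and 1.13 in iPSCs. The siRNA libraries of day 6 had 1.34 (D6 siH3.3) and 1.51 (D6 siNT), far from the 19.2 of the other Thy-1- library of day 6. A member at a U3 small nucleolar RNA had 0.662 in D0, 5.46 in D3, 14 in D6T-, 0.833 in D9T-, 6.53 in D12S+, 5.48 in D16S+ and 0.489 in iPSCs, with 1.07 and 1.01 in the siRNA libraries. Both were thus high in the same 4 libraries. Both had the summit in an annotated exon in D3, D6T- and D12S+, but not in D0, D9T-, D16S+ or iPSCs. Other members with a wide range went the other way. Gm10807 was lowest in D6T- (1.59 RPM) and had 5.04 in iPSCs. 4933403O03Rik was highest in D0 (2.93) and lowest in D6T- (1.31). The cause was not tested.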
